A study of Homo sapiens with 9 samples.

Results

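The mTORC1 brakes described here are 9 genes, SESN1, SESN2, SESN3, DDIT4, TSC1, TSC2, CASTOR1, DEPTOR and EIF4EBP1, taken by symbol from the 16222 genes of the deposited count and FPKM tables. They were chosen by their known role and with earlier results of these data in view, among them fold changes between the groups such as the rise of SESN2 with LPS. Their differences between groups are therefore given as descriptions of these libraries. All 9 passed the filter on low counts, with 39 to 22141 counts per gene and library. RNA was sequenced from THP-1, an established human monocytic leukaemia cell line labelled wild type. Every group, controls included, was first treated with PMA, a phorbol ester used to turn these suspension cells into adherent, macrophage-like ones. The cells then received PBS (control), LPS (lipopolysaccharide, a cell wall component of Gram-negative bacteria that activates macrophages), or LPS together with ABS (written LPS_ABS). The sources do not spell out ABS, although the series title speaks of apoptotic bodies, and they give no dose or time. There were 3 libraries per group, 9 in all. Whether the libraries of a group are separate cultures is not stated, and the p-values then measure only the spread between these samples, which may be technical. There was no group with ABS and without LPS.

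The kinase complex mTORC1 drives protein synthesis and growth and holds back autophagy when amino acids, growth factors and energy are plentiful. Its brakes act at separate points of the pathway. Amino acid shortage acts through the GATOR complexes, which control the Rag GTPases on the lysosome: the sestrins and CASTOR1 bind and inhibit GATOR2, with SESN1 and SESN2 released from it by leucine and CASTOR1 by arginine, whereas leucine has little effect on the binding of SESN3. The growth factor and energy arm acts through the TSC complex, formed by TSC1 and TSC2, which switches off the GTPase RHEB, and DDIT4 (also called REDD1) promotes the action of that complex. DEPTOR binds mTOR itself, and EIF4EBP1 (4E-BP1) lies downstream as a translation repressor that mTORC1 phosphorylates and releases from the cap-binding protein EIF4E. Several of these genes are known targets of stress-activated transcription factors, SESN2 and DDIT4 among them. Such regulation of mRNA is distinct from the phosphorylation that reports mTORC1 activity, and only mRNA was measured.

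The 9 libraries held 38506162 to 41679412 counts. All 10 monocyte and macrophage markers looked up were in the count table. Their summed level was taken in CPM (counts scaled to a fixed library size after TMM normalization). It ranged over 1275 to 1339 in control libraries, 1331 to 1490 in LPS libraries and 1584 to 1887 in LPS_ABS libraries. SPI1 and CD68 had the highest averages in each group (459.5 and 265.1 CPM in controls), whereas CD163 averaged at most 1.28 CPM. Single markers moved both ways. From control to LPS, CD14 averaged 17.5 and 31.3 CPM, and ITGAM 16.5 and 11.6 CPM. Of the 5 T cell markers only CD2 and CD8A were in the table, with a summed level of at most 0.135 CPM, and the other lists (fibroblast, B cell, epithelial and chondrocyte) summed to at most 8.83 CPM. The endothelial list reached 237 to 359 CPM through PECAM1, which monocytes also express, whereas VWF averaged at most 0.50 CPM and KDR at most 0.13 CPM per group. Libraries differed in how counts moved with the GC content of a gene's longest coding transcript. The slope, in log2 CPM per 10 percentage points of GC, was -0.16 ± 0.02 (SD, n = 3) in controls, -0.15 ± 0.14 with LPS and 0.31 ± 0.08 with LPS_ABS, so that trend separates LPS_ABS from the other groups. Fold changes of the brakes with LPS_ABS are therefore given as tested and after removal of each library's GC trend, while CPM, FPKM and shares are not corrected for it. Library 3 of LPS_ABS also stood apart from libraries 1 and 2 in several brakes, and values without it are given below.

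The promoters of SESN2 and DDIT4, the most strongly raised brakes, and of SESN3, the sestrin that was lower with LPS, are shown for comparison as the 250 bases before the RefSeq transcription start (assembly GRCh38.p14), written 5′ to 3′ on the gene's strand. SESN2 lies at chr1:28259268-28259517 on the plus strand, DDIT4 at chr10:72273674-72273923 on the plus strand and SESN3 at chr11:95232476-95232725 on the minus strand. Capitals mark matches, on either strand, to 6 motifs: the C/EBP-ATF response element TGATGNAA, the cAMP response element TGACGTCA, the AP-1 site TGANTCA, the FOXO site GTAAACA, the hypoxia response core ACGTG and the CCAAT box, named for its letters.
SESN2: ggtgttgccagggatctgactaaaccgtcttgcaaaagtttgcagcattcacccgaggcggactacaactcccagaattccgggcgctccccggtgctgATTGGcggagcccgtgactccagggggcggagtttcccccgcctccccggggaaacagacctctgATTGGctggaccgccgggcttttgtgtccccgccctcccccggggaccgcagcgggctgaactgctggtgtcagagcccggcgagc
DDIT4: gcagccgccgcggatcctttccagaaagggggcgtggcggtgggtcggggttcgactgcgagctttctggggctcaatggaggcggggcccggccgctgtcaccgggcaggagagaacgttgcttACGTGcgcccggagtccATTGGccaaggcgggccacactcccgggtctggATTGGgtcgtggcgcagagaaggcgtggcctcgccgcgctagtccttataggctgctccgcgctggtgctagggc
SESN3: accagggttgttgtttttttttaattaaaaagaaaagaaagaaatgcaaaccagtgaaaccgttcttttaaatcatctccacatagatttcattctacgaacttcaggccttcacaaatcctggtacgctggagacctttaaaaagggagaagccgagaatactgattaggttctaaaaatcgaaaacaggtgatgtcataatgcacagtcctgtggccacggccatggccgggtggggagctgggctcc
The SESN2 window held 2 matches to CCAAT and none to the other 5 motifs. The DDIT4 window held 2 matches to CCAAT and 1 to ACGTG. The SESN3 window held no match to any of the 6, and the GC content of that window was 42.8%, against 65.6% for SESN2 and 68.8% for DDIT4. Among 35116 RefSeq promoters of the same 250 bases, 32% held CCAAT, 18.5% ACGTG, 6.57% TGANTCA, 3.14% TGATGNAA, 2.98% GTAAACA and 1.65% TGACGTCA. Matches were not limited to the brakes that differed with LPS. CCAAT was also found in 2 of 3 SESN1 promoters and in the CASTOR1 promoter. Of the 2 TSC2 promoters, 1 held the single TGATGNAA match among the brakes and 2 overlapping ACGTG matches. The CCAAT box was added after the sequences had been read. RefSeq promoters were found for 7 of the 9 brakes, and DEPTOR and EIF4EBP1 are named only.

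With LPS, the stress-linked brakes SESN2 and DDIT4 and the translation repressor EIF4EBP1 were several times higher than in controls, and SESN3 was lower by nearly the same factor as DEPTOR was higher. Of the 9 brakes, 4 were called higher (SESN2, DDIT4, EIF4EBP1 and DEPTOR) and 1 lower (SESN3) by edgeR's quasi-likelihood test at an adjusted p under 0.05, beside 14.9% of all 12970 genes tested (7.71% higher and 7.19% lower). The median log2 fold change of the 9 was 0.51, beside -0.03 over all genes tested. Removal of the GC trend left all 5 calls in place, beside 21.1% of all genes tested (11.4% higher and 9.7% lower). The 3 libraries of LPS did not overlap those of the control for 7 of 9 brakes, beside 42.6% of all genes tested. In bulk RNA, fewer cells of a type and less RNA per cell cannot be told apart.

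**Figure D1:**
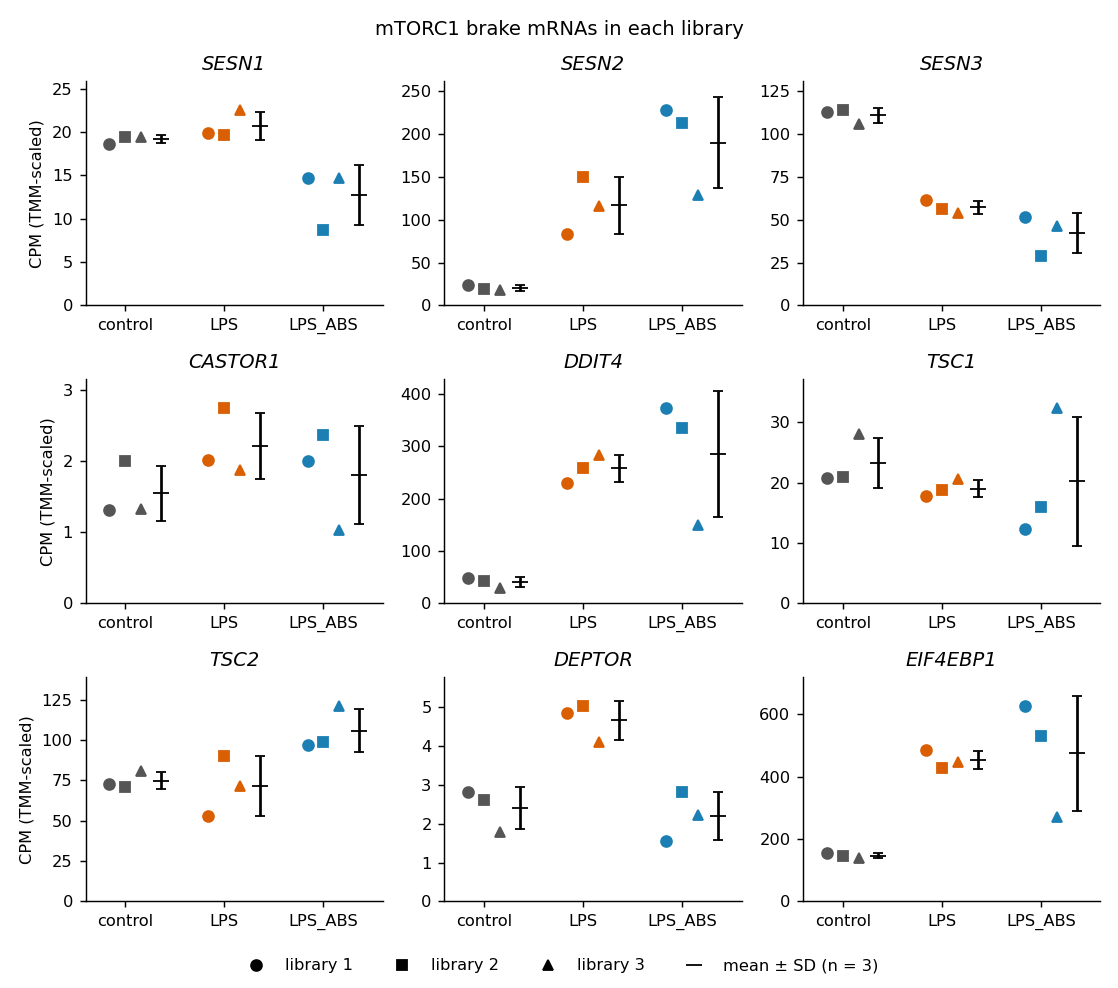
Level of each of the 9 brakes in every library, in TMM-scaled CPM on linear axes that start at 0, by group (control, LPS and LPS_ABS). Each symbol is 1 library, and the bar beside it is the mean ± SD (n = 3). SESN2, DDIT4 and EIF4EBP1 are higher in all LPS and LPS_ABS libraries than in any control, SESN3 is lower, and LPS_ABS library 3 lies below the other LPS_ABS libraries for DDIT4 and EIF4EBP1.

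SESN2 and SESN3 moved in opposite directions with LPS. SESN2 (gene 83667), the leucine sensor best known for induction by amino acid shortage, was at 24.5, 18.8 and 17.7 CPM in the 3 controls, 83.3, 150.4 and 116.4 CPM with LPS and 227.8, 213.1 and 129.1 CPM with LPS_ABS. Every library given LPS was above every control, and LPS and LPS_ABS overlapped, because LPS_ABS library 3 lay below LPS library 2. The log2 fold change of LPS against control was 2.52 ± 0.25 (SE; 5.74-fold; edgeR adjusted p = 0.000128), the 108th largest rise among the 12970 genes. SESN3 (gene 143686), known as a FOXO target, was at 113.1, 113.8 and 105.8 CPM in controls, 61.3, 56.5 and 53.8 CPM with LPS and 51.6, 29 and 46.2 CPM with LPS_ABS. The 3 groups did not overlap at all for SESN3, and controls were highest. Its log2 fold change with LPS was -0.96 ± 0.18 (1.94-fold lower; edgeR adjusted p = 0.00454). SESN1 (gene 27244), the remaining sestrin, was at 18.6, 19.4 and 19.4 CPM in controls and 19.8, 19.6 and 22.5 CPM with LPS. The SESN1 groups did not overlap, but the log2 difference was 0.11 ± 0.19 and was not called (edgeR adjusted p = 0.75). With LPS_ABS, SESN1 was at 14.7, 8.73 and 14.7 CPM, below all 6 other libraries.

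Compared per gene length, in the deposited FPKM, the most abundant sestrin mRNA changed from SESN3 to SESN2. In controls SESN3 made up 55.3% ± 2.18 (SD, n = 3) of the summed sestrin FPKM, SESN2 29% ± 3.38 and SESN1 15.6% ± 1.31. With LPS the SESN2 share was 77.9% ± 5.61, from 71.9% to 83.0% in single libraries, and the SESN3 share was 13.9% ± 3.94. With LPS_ABS the SESN2 share was 89.1% ± 4.69 and the SESN3 share 7.30% ± 3.03. These shares are not corrected for GC content: the log2 difference of LPS_ABS from LPS was 0.70 for SESN2 and -0.44 for SESN3 as tested, and 0.32 and 0.29 after correction, so the step between these groups was not seen in the corrected values. The summed FPKM of the 3 sestrins was 20.9 ± 1.54 in controls, 43.5 ± 9.16 with LPS and 57.9 ± 13.1 with LPS_ABS. The sum was higher in all 6 libraries given LPS than in any control, while LPS_ABS library 3 (42.9 FPKM) lay within the LPS range of 34.9 to 53.1 FPKM.

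**Figure D2:**
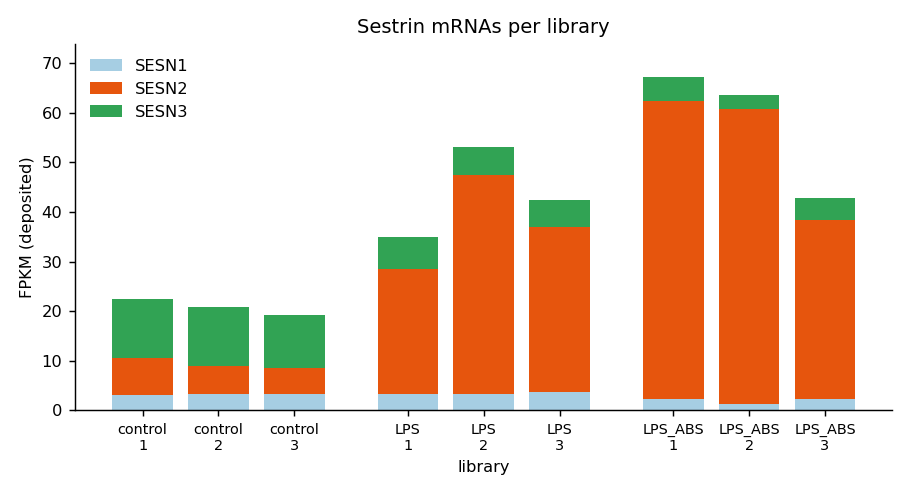
Stacked bars of the deposited FPKM of SESN1, SESN2 and SESN3 in each of the 9 libraries, with groups set apart. SESN3 is the tallest segment in each control (10.8 to 11.9 FPKM) and SESN2 in each library given LPS (25.1 to 60.2 FPKM).

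CASTOR1 (gene 652968), the arginine sensor, was among the lowest brakes, with 1.32, 2.0 and 1.33 CPM in controls, 2.02, 2.75 and 1.88 CPM with LPS and 2.01, 2.37 and 1.04 CPM with LPS_ABS. Its groups overlapped in every comparison, and its log2 difference with LPS was 0.51 ± 0.34 (edgeR adjusted p = 0.356). At this depth a difference of that size was within the spread between libraries.

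DDIT4 (gene 54541), the stress-induced activator of the TSC complex, was at 49.4, 43.8 and 29.7 CPM in controls, 230.9, 259.6 and 282.7 CPM with LPS and 372.7, 335.5 and 148.9 CPM with LPS_ABS. All 6 libraries given LPS exceeded every control. The LPS_ABS libraries lay on both sides of the LPS range, with library 3 below it and libraries 1 and 2 above it. The log2 fold change of LPS against control was 2.65 ± 0.29 (6.29-fold; edgeR adjusted p = 0.0002), the 91st largest rise of the 12970 genes and the largest of the 9 brakes.

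The TSC complex subunits themselves were not called with LPS. TSC1 (gene 7248) was at 20.8, 20.9 and 28 CPM in controls and 17.7, 18.7 and 20.5 CPM with LPS, groups that did not overlap but differed by only -0.29 ± 0.28 on the log2 scale (edgeR adjusted p = 0.539). With LPS_ABS it was at 12.3, 15.9 and 32.3 CPM, so that libraries 1 and 2 were the lowest of the 9 and library 3 the highest. TSC2 (gene 7249), the subunit that carries the GTPase-activating domain for RHEB, was at 72.4, 71.1 and 80.9 CPM in controls, 53, 90.0 and 71.8 CPM with LPS and 97.1, 98.8 and 120.9 CPM with LPS_ABS. Its LPS libraries spanned the control range, and its LPS_ABS libraries were above all 6 others. The log2 difference with LPS was -0.06 ± 0.17 (edgeR adjusted p = 0.855). In the GENCODE annotation TSC2 overlaps NTHL1 and PKD1, and TSC1 overlaps GFI1B, in each case on the opposite strand. The strand setting of the counting is not given in the sources used here. Reads of these neighbours therefore cannot be told apart from those of TSC2 and TSC1. The same holds for DDIT4 and DDIT4-AS1 on its opposite strand. CASTOR1 overlaps the protein-coding gene AC004997.1 on its own strand. SESN1, SESN3 and DEPTOR overlap noncoding genes or pseudogenes. None of these further neighbours is in the count table by name.

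DEPTOR (gene 64798), the inhibitor that binds mTOR in both of its complexes, was low throughout, at 2.80, 2.6 and 1.80 CPM in controls, 4.85, 5.02 and 4.09 CPM with LPS and 1.56, 2.80 and 2.23 CPM with LPS_ABS. The 3 LPS libraries were above all others, and LPS_ABS overlapped the controls. The log2 fold change with LPS was 0.95 ± 0.27 (1.94-fold; edgeR adjusted p = 0.0316). This call was lost when any single one of the 6 control or LPS libraries was left out, with an edgeR adjusted p of up to 0.128 (without control 3). DEPTOR counts were low, and whether that accounts for the loss was not tested.

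EIF4EBP1 (gene 1978), the translation repressor, was the most abundant brake, at 154.9, 145.3 and 139.0 CPM in controls, 486.5, 428.6 and 446.1 CPM with LPS and 626.4, 531.2 and 269.9 CPM with LPS_ABS. Every library given LPS exceeded every control, and LPS_ABS library 3 was the lowest of those 6. The log2 fold change of LPS against control was 1.63 ± 0.23 (3.10-fold; edgeR adjusted p = 0.000811). One annotated pseudogene, EIF4EBP1P1, shares its name, and reads split with it cannot be told apart.

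**Figure D3:**
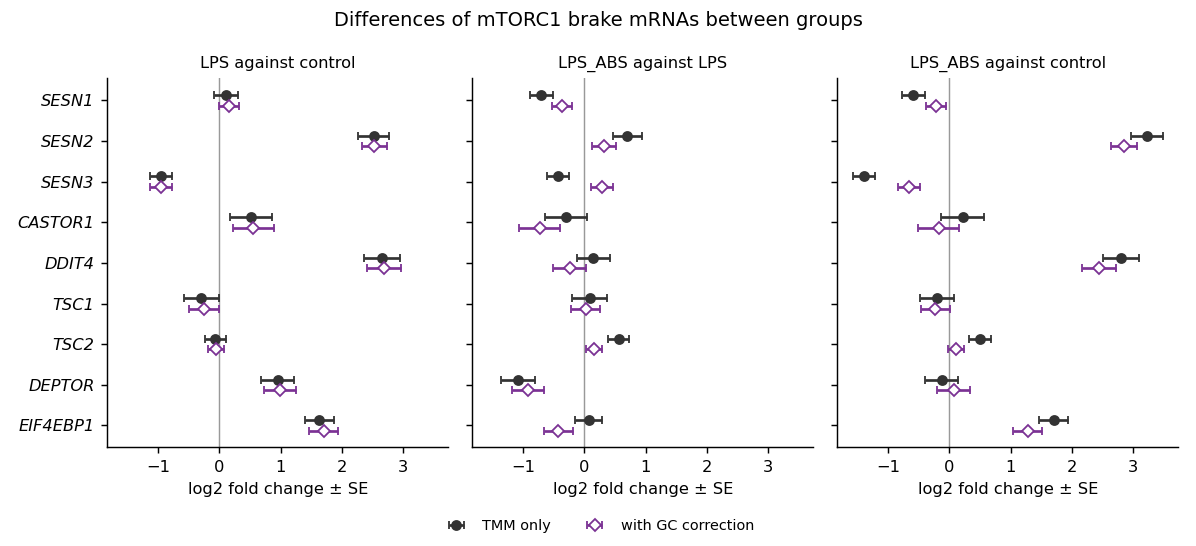
Log2 fold change of each brake, with its standard error, in the 3 comparisons, before and after removal of each library's GC trend. The values for LPS against control barely move with the correction. In both comparisons with LPS_ABS, those of SESN1, SESN2 and TSC2 move toward 0. Against control, SESN3 (-1.39 to -0.66), DDIT4 and EIF4EBP1 also move toward 0. Against LPS, CASTOR1 (-0.30 to -0.73) and EIF4EBP1 (0.07 to -0.43) move away from 0.

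In FPKM, which compares genes per length, the order of the brakes in controls was EIF4EBP1 (183.5 ± 11.8, SD, n = 3), DDIT4 (24.4 ± 6.28), SESN3 (11.5 ± 0.60), TSC2 (11.4 ± 0.66), SESN2 (6.09 ± 1.13), SESN1 (3.25 ± 0.07), TSC1 (2.68 ± 0.44), CASTOR1 (1.07 ± 0.28) and DEPTOR (0.97 ± 0.23). The ranges of 3 neighbouring pairs overlapped, namely SESN3 and TSC2, SESN1 and TSC1, and CASTOR1 and DEPTOR. With LPS the leading brakes were EIF4EBP1 (558.4 ± 48.3), DDIT4 (150.0 ± 11.3) and SESN2 (34.2 ± 9.53), each separated from the next, and SESN3 stood behind TSC2 at 5.84 ± 0.54. With LPS_ABS the same 3 led, with EIF4EBP1 at 542.8 ± 200.2, DDIT4 at 154.5 ± 62.5 and SESN2 at 51.9 ± 13.7. Below TSC2 (14.7 ± 2.16), the ranges of all neighbours from SESN3 to DEPTOR overlapped in that group.

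In LPS_ABS against LPS, edgeR called 4 of 9 brakes, beside 35.6% of all genes tested (16.8% higher and 18.8% lower). SESN2 and TSC2 were called higher, and SESN1 and DEPTOR lower. Of these 4 calls, 3 were lost once the GC trend was removed. The groups did not overlap for 4 of 9 brakes (SESN1, SESN3, TSC2 and DEPTOR), beside 46.2% of all genes tested. After the GC correction 1 of 9 was called (DEPTOR), beside 9.25% of all genes tested (5.03% higher and 4.23% lower), and over all genes 770 of the 4621 calls (16.7%) were kept. DEPTOR was lower with LPS_ABS, with a log2 fold change of -1.08 ± 0.27 (2.12-fold lower; edgeR adjusted p = 0.0115) and of -0.92 ± 0.26 after correction (adjusted p = 0.0461). Without LPS_ABS library 3 the corrected DEPTOR value was -0.88 and no longer called (adjusted p = 0.0966), and 6 of the 8 other libraries, left out singly, also ended the corrected call. The SESN1 difference was -0.70 ± 0.19 (edgeR adjusted p = 0.0162) and -0.37 after correction (adjusted p = 0.159). SESN2 differed by 0.70 ± 0.24 (edgeR adjusted p = 0.0367) and by 0.32 after correction (adjusted p = 0.300). TSC2 differed by 0.56 ± 0.18 (edgeR adjusted p = 0.0274) and by 0.16 after correction (adjusted p = 0.442). The other 5 brakes were called in neither fit, and 3 of them changed sign with the correction. SESN3 was at -0.44 ± 0.18 as tested (edgeR adjusted p = 0.0741) and 0.29 after correction (adjusted p = 0.304). DDIT4 was at 0.15 ± 0.28 and -0.24, and EIF4EBP1 at 0.07 ± 0.23 and -0.43. TSC1 was at 0.09 ± 0.28 and 0.02, and CASTOR1 at -0.30 ± 0.34 and -0.73.

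The GC content of the longest coding transcript runs from 37.1% in SESN3, 43.4% in SESN1, 45.7% in DEPTOR and 48.5% in TSC1 to 58.1% in DDIT4, 59.5% in SESN2, 60.5% in TSC2, 61.7% in CASTOR1 and 65.5% in EIF4EBP1. In LPS_ABS against LPS, of the 4 brakes under 50%, 3 had higher values after correction and TSC1 a lower one, and all 5 above 50% had lower values. The source of the GC trend was not tested. Because the trend separates LPS_ABS from the other groups, a technical trend and a difference with ABS that follows GC content cannot be told apart. The correction removes both, so a call lost after it is not thereby shown to be technical.

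**Figure D4:**
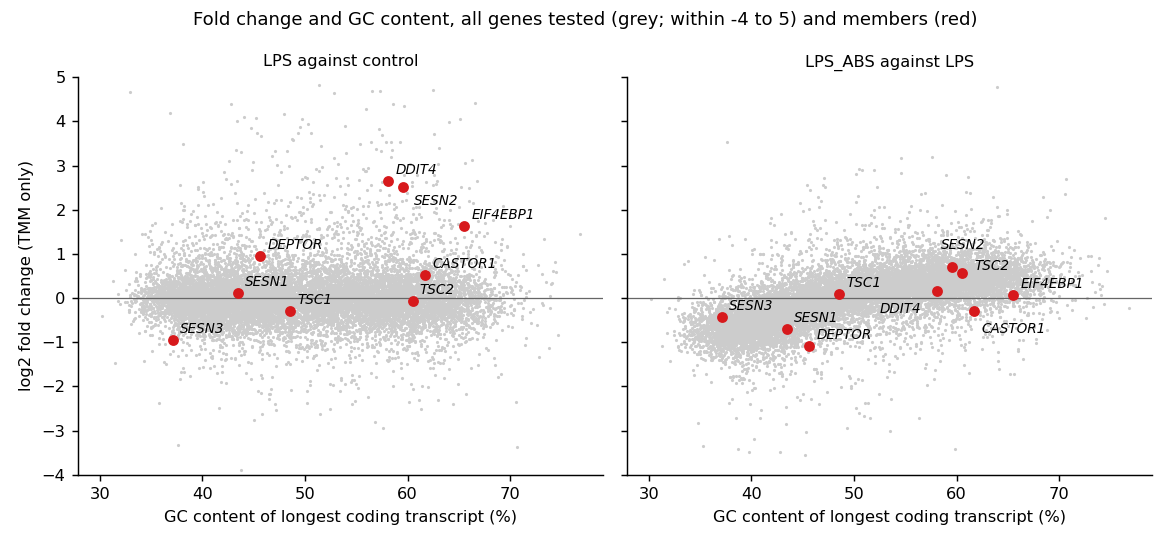
Log2 fold change as tested (TMM only) against the GC content of the longest coding transcript in percent, for all genes tested (grey, a few of them beyond the axis) and the 9 brakes (red, named), for LPS against control (left) and LPS_ABS against LPS (right). The grey cloud slopes upward on the right, where SESN3 at 37.1% GC lies at -0.44 and SESN2 at 59.5% GC at 0.70.

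Library 3 of LPS_ABS differed from its group in several brakes. Its CPM was set against the mean of LPS_ABS libraries 1 and 2. It was 0.42 times that mean for DDIT4, 0.466 times for EIF4EBP1, 0.474 times for CASTOR1 and 0.585 times for SESN2, but 2.28 times for TSC1. Over genes averaging above 1 CPM in LPS_ABS, the ratio had a median of 0.975 and 5th and 95th percentiles of 0.547 and 1.63. SESN2 lay within that range, and DDIT4, EIF4EBP1, CASTOR1 and TSC1 lay outside it. Library 3 lay below both other LPS_ABS libraries in 4 of 9 brakes (44.4%), near the 38.5% of all genes tested. Without it, the log2 difference from LPS was 0.92 for SESN2 (edgeR adjusted p = 0.0141), 0.46 for DDIT4 (adjusted p = 0.0741) and 0.35 for EIF4EBP1, which was then called (adjusted p = 0.0381), while TSC2 was no longer called (0.45, adjusted p = 0.0776). With the GC trend removed as well, none of these 4 was called: SESN2 was at 0.52 (edgeR adjusted p = 0.0578), DDIT4 at 0.07, TSC2 at 0.04 and EIF4EBP1, with its sign turned, at -0.15 (adjusted p = 0.590). The SESN2 difference was lost without LPS 1 (0.51, edgeR adjusted p = 0.141), LPS 3, LPS_ABS 1, LPS_ABS 2 or control 2. Why the library differs was not tested.

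Against controls, LPS_ABS showed the same 3 leading rises as LPS alone. The comparison shares its control samples with LPS against control and its LPS_ABS samples with LPS_ABS against LPS, so the 3 sets of values are not independent. edgeR called 6 of 9 brakes, SESN2, DDIT4, EIF4EBP1 and TSC2 higher and SESN1 and SESN3 lower, beside 33.8% of all genes tested (14.8% higher and 19% lower). The same 6 did not overlap between the groups, beside 50% of all genes tested. After the GC correction 4 of 9 were called, 3 higher and 1 lower, beside 13% of all genes (7.94% higher and 5.03% lower). SESN2 was higher by 3.22 ± 0.26 on the log2 scale (9.34-fold; edgeR adjusted p = 6.23e-05), the 38th largest rise of the 12970 genes, and by 2.84 after correction. DDIT4 was higher by 2.80 ± 0.30 and EIF4EBP1 by 1.70 ± 0.23, and both kept their call after correction, at 2.44 and 1.27. SESN3 was lower by 1.39 ± 0.18 on the log2 scale (2.63-fold; edgeR adjusted p = 0.000574), a log2 fold change of -0.66 after correction (adjusted p = 0.0304). That corrected SESN3 call was lost when any 1 control, LPS_ABS 1 or LPS_ABS 2 was left out, with an adjusted p of up to 0.107. SESN1 (-0.59 ± 0.19; edgeR adjusted p = 0.0313) and TSC2 (0.50 ± 0.18; adjusted p = 0.0444) lost their calls after correction, at -0.21 and 0.11. Among the alternatives run, TSC1 was called lower only without LPS_ABS library 3 (-0.72, edgeR adjusted p = 0.0114, and -0.66 after correction, adjusted p = 0.0108). DEPTOR (-0.13 ± 0.27, and 0.07 after correction) and CASTOR1 (0.22 ± 0.35, and -0.17 after correction) were not called, and both changed sign.

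The rest of the pathway was read from lists of genes with known roles. Counts of list genes called with LPS stand beside 7.71% of all genes tested called higher and 7.19% called lower (11.4% and 9.7% after the GC correction). Among 9 other brakes of the amino acid arm (GATOR1, which turns off the Rag GTPases, the KICSTOR complex that anchors it, the SAM sensor BMT2 and CASTOR2), 0 were called with LPS. The lowest edgeR adjusted p there was 0.0819, for KICS2 at -0.60 ± 0.22 on the log2 scale, and 3 of the 9 had an unadjusted p under 0.05 (DESeq2 called 1). Of 18 activators of that arm (GATOR2, the Rag GTPases, Ragulator and the folliculin complex), 2 (11.1%) fell with LPS as tested and 0 rose. Those that fell were the GATOR2 subunits SEH1L (-0.60 ± 0.14) and SEC13 (-0.51 ± 0.12). After the GC correction 2 rose and 2 fell, which is 11.1% in each direction, near the shares of all genes. In the growth factor and energy arm, the RHEB paralog RHEBL1 rose (2.03 ± 0.44), and none of the genes of that arm tested fell. RHEBL1 was low throughout, with a mean of 0.45 CPM in controls and 1.86 CPM with LPS.

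Of 10 subunits and assembly factors of the mTOR complexes, 1 rose and 1 fell with LPS as tested, which is 10% in each direction, near the share of all genes. After the GC correction 1 rose (10%) and 3 fell (30%), beside 11.4% and 9.7% of all genes. The riser was MLST8, the small subunit of both mTOR complexes, at 83.1, 81.6 and 67.0 CPM in controls, 281.7, 312.6 and 329.5 CPM with LPS and 429.3, 358.7 and 157.1 CPM with LPS_ABS. Every library given LPS was above every control, and LPS_ABS library 3 was again the lowest of the 6. Its log2 fold change with LPS was 2.0 ± 0.28 (edgeR adjusted p = 0.000748), whereas TELO2, which helps to assemble mTOR complexes, fell by 0.91 on the log2 scale. MLST8 overlaps BRICD5 on the opposite strand, so their reads cannot be told apart. MTOR, RPTOR and RICTOR, the kinase and the defining subunits of its 2 complexes, were not called with LPS.

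Downstream of mTORC1, 1 of 12 translation targets (8.33%, near the 7.71% of all genes) rose with LPS, the translation inhibitor PDCD4 (0.78 ± 0.13), and 0 fell. Of 11 autophagy and lysosome targets, 1 rose, the autophagosome protein MAP1LC3B (0.48 ± 0.13). The list's median log2 fold change was 0.46, and 4 (36.4%) rose after the GC correction, beside 11.4% of all genes.

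**Figure D5:**
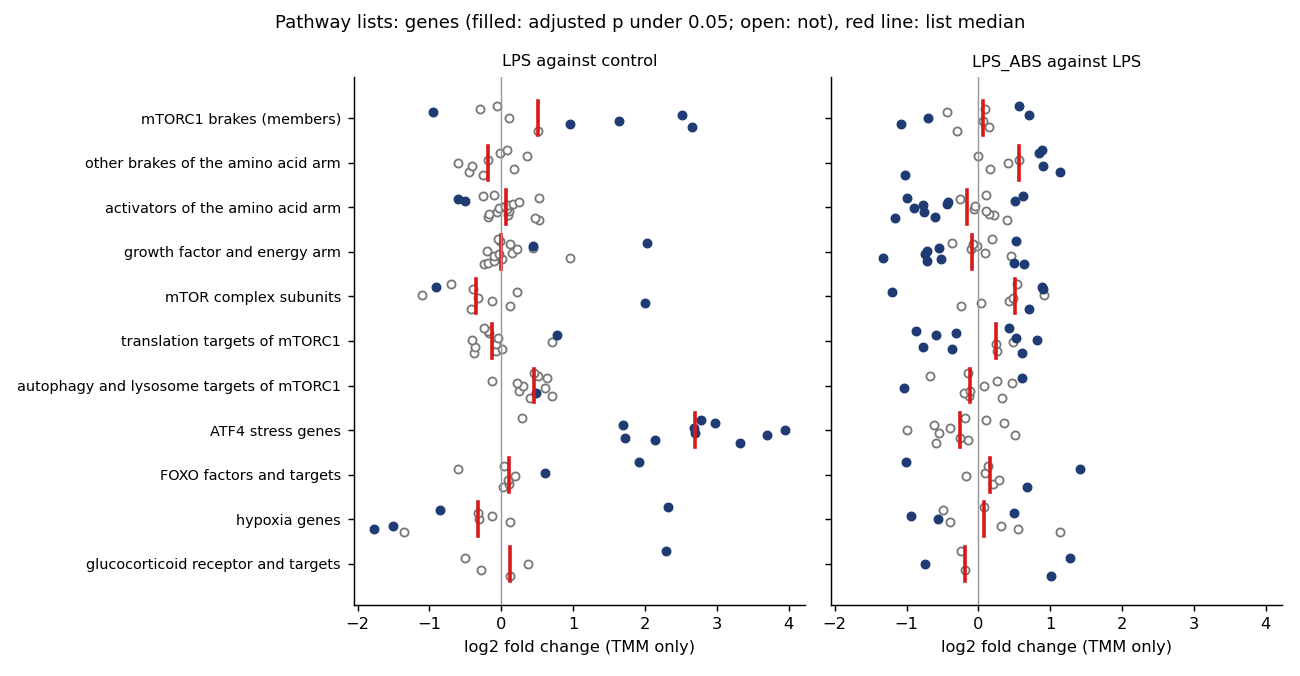
Log2 fold changes as tested of the genes of each list, LPS against control (left) and LPS_ABS against LPS (right), 1 point per gene (filled where the adjusted p is under 0.05) and the list median as a red line. With LPS the ATF4 stress genes have a median of 2.69, and in LPS_ABS against LPS none of them is filled.

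The lists of transcription factors known to act on sestrins and DDIT4 differed in their counts with LPS. Of 11 genes of the ATF4 stress response, the program induced by amino acid shortage and other stresses, 10 rose and 0 fell, beside 7.71% and 7.19% of all genes, with a list median of 2.69 beside -0.03 over all genes tested. ATF4 itself was at 486.8 to 493.0 CPM, 1540 to 1639 CPM and 1003 to 1549 CPM in the lowest and highest libraries of control, LPS and LPS_ABS, so the LPS and control groups were far apart. Its log2 fold change with LPS was 1.72 ± 0.15 (edgeR adjusted p = 7.17e-05). CHAC1, which degrades glutathione, rose by 3.70 ± 0.31, PSAT1 of serine synthesis by 2.68 ± 0.25 and the stress factor ATF3 by 2.14 ± 0.21. The exception was VLDLR, the lipoprotein receptor, which was not called. In LPS_ABS against LPS 0 of the 11 were called, and 1 after the GC correction (ATF4, -0.61, edgeR adjusted p = 0.0307). LPS_ABS library 3 was below both other LPS_ABS libraries in 10 of the 11, beside 38.5% of all genes tested. VLDLR was the exception, at 1.25 times the mean of those 2 libraries.

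The other lists had fewer calls with LPS, beside the same 7.71% of all genes higher and 7.19% lower. Of 8 FOXO factors and targets, 2 rose, TXNIP (1.92 ± 0.21), which binds thioredoxin, and FOXO4 (0.61 ± 0.18). Of 9 hypoxia genes tested, VEGFA rose (2.33 ± 0.23) and 3 fell, BNIP3 (-1.51 ± 0.15), P4HA1 (-0.85 ± 0.19) and ANKRD37 (-1.77 ± 0.42). Of 5 glucocorticoid receptor genes tested, 1 rose, TSC22D3 (2.29 ± 0.24), the leucine zipper protein GILZ.

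With ABS added to LPS, 35.6% of all genes tested were called (16.8% higher and 18.8% lower), and 9.25% after the GC correction (5.03% and 4.23%). The pathway lists stand beside these shares. Among the 9 other brakes of the amino acid arm, 4 were called higher and 1 lower, and 3 higher and 0 lower after correction. With single libraries left out, the corrected calls in this list ranged from 0 to 6. Of the calls as tested, 2 were kept after correction. These were the KICSTOR subunit ITFG2 (0.90 ± 0.17, and 0.70 after correction, edgeR adjusted p = 0.0196) and the GATOR1 subunit NPRL3 (0.84 ± 0.18, and 0.43 after correction, adjusted p = 0.0401). Of the 18 activators, 2 were called higher and 8 lower, of which 1 stayed called after correction, the lysosomal arginine transporter SLC38A9 (-0.99 ± 0.18, and -0.62, adjusted p = 0.0388). In the growth factor and energy arm 3 of 16 tested were called higher and 6 lower, and 0 of these 9 calls were kept after correction. Over all 11 pathway lists together, 52 of 120 genes tested (43.3%) were called in LPS_ABS against LPS and 11 (9.17%, near the share of all genes) after correction. In LPS against control 27 (22.5%) were called, beside 14.9% of all genes, 10 of them ATF4 stress genes.

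Genes whose profile over the 9 libraries was most like that of SESN2 or DDIT4 were sought among 10633 genes that averaged 100 counts or more per library, by Pearson's r of log2 CPM. The 9 points share the 3 groups and their depth and GC differences, so r is a description. For SESN2 the closest were SLC7A5 (r = 0.997), the leucine transporter LAT1, ADM2 (0.995), NLRP12 (0.993), SLC1A5 (0.991), the glutamine transporter ASCT2, and the AP-1 family repressor JDP2 (0.989). SLC7A5 averaged 161.2 CPM in controls, 675.7 CPM with LPS and 1086 CPM with LPS_ABS. For DDIT4 the closest were VEGFA (0.998), CTH (0.998), an enzyme of cysteine synthesis, the methionyl-tRNA synthetase MARS1 (0.994), the glycine transporter SLC6A9 (0.994) and INHBE (0.993). VEGFA averaged 49.0, 245.9 and 260.1 CPM in control, LPS and LPS_ABS.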

How the data were processed

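mRNA of 1 cell line was sequenced in 9 libraries, 3 per treatment. Per the labels' protocols, RNA was extracted with TRIzol, and a VAHTS kit and a TruSeq kit are both named for every sample. HISAT2, HTSeq, fastp, DESeq2 and R 3.2.0 are named, without roles, per the submitters' processing notes. Genome build, annotation and strand setting are not given in the sources used here. The authors deposited raw counts per gene and the FPKM computed from them: in the 13039 genes with a count in every library, each FPKM was the count over the library total and over 1 fixed length of that gene, with a relative spread of at most 1.1e-15.

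Tests used edgeR 4.0.16 (R 4.3.3) on the counts: filterByExpr (12970 genes, 99.985% of counts), TMM scaling and a quasi-likelihood F test on 3 group means over all 9 libraries (6 residual degrees of freedom), Benjamini-Hochberg adjustment over all genes tested and a threshold of 0.05. SE is the log2 fold change divided by the square root of F. CPM is TMM-scaled, as mean ± SD, and likeness used log2 CPM with a prior count of 2. The common coefficient of variation between libraries was 18.4%. The GC trend was a lowess fit (span 0.3) per library on the GC content of the longest coding GENCODE v29 transcript (found for 99.19% of genes), entered as an offset. On simulated counts for LPS against control (12830 genes), 71% of 100 genes changed 2-fold and 100% of 100 changed 4-fold were called, with 6 false calls. The simulation gave every gene the same spread and no GC trend, and changed only genes above a minimum expected count. These rates therefore need not hold for the real libraries. Within groups, chi-square per degree of freedom was 7.23 to 145, so no library was a duplicate.

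The members and gene lists were chosen with earlier results of these data known. Named were all members, from each list up to 4 called genes with the smallest adjusted p per comparison, and the 5 genes most like SESN2 and DDIT4; KICS2, VLDLR, MTOR, RPTOR, RICTOR and the neighbours were named after their values were seen. Alternatives were DESeq2 1.42.0, its size factors, total counts, no filter, a replicate block, the GC correction, the block with it, the 2 groups only, and each library left out. The GC correction with each library left out was added after seeing the data. The results of 1 list and of single genes in others are not reported here.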

Additional observations from a re-analysis of the deposited data

How the results depend on the processing

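The calls of SESN2, DDIT4 and EIF4EBP1 in LPS against control and LPS_ABS against control, and of SESN3 in LPS against control, held in all 26 alternatives. DEPTOR in LPS against control was called in 18 of 26 and SESN2 in LPS_ABS against LPS in 8 of 26. The 1 called value that changed sign was TSC2 in LPS_ABS against control, at -0.0024 with the GC correction and without LPS_ABS 3 (highest 0.56, without control 3 and uncorrected). With DESeq2, its size factors in edgeR, or the replicate block, the 5, 4 and 6 calls among the brakes were all kept.

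In the order LPS against control, LPS_ABS against LPS and LPS_ABS against control, all genes called numbered 1933, 4621 and 4388. With the GC correction LPS_ABS against LPS had 1200 and LPS_ABS against control 1683, and with the replicate block and the correction 1407 and 1743. Fitting only the 2 groups gave 3245 in LPS against control and 3042 in LPS_ABS against LPS. Brakes called in LPS_ABS against LPS numbered 1 with the correction, 1 with block and correction and 2 with only the 2 groups. Pathway list genes called numbered 27, 52 and 56. They numbered 11 and 34 in the comparisons with LPS_ABS after correction, 16 and 32 with block and correction, and 43 in LPS against control with only the 2 groups.

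Leaving out each library gave 873 to 2710, 2360 to 4918 and 2351 to 4793 genes, 4 to 5, 1 to 4 and 4 to 6 brakes, and 20 to 36, 34 to 55 and 38 to 57 list genes. With the GC correction as well, these were 1499 to 3616, 188 to 2745 and 586 to 2618 genes, 4 to 5, 0 to 1 and 3 to 5 brakes, and 27 to 50, 1 to 30 and 22 to 46 list genes. The cause of these shifts was not tested. The lowest counts came without LPS 3 in LPS against control (873) and without LPS 1 in LPS_ABS against LPS (2360). Correlations of same-numbered deviations ran from -0.04 to 0.20 over 9 pairs, and those of differently numbered ones from -0.20 to 0.17. Such weak correlations cannot show whether replicate numbers pair the libraries. The replicate block called 1960, 4838 and 4573 genes.

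Scaling by total counts moved the median log2 difference of all genes from 0.02 to -0.09 in LPS_ABS against LPS and from 0.05 to -0.08 in LPS_ABS against control. The share of calls that were higher went from 47.2% to 32.6% and from 43.8% to 26.7%, and after the GC correction it was 54.3% and 61.2%. In LPS against control it was 51.7%, and 60.7% with no filter. SESN3 in LPS_ABS against LPS was called with total counts (-0.54), no filter (-0.47) or without LPS_ABS 1 (-0.61). Among the brakes, CASTOR1 and DEPTOR had the lowest counts.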
